A study of Mus musculus with 21 samples.

Results

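The genes described here serve or regulate mitochondrial pyruvate entry and use, glutamate metabolism, or the transfer of cytosolic reducing equivalents to the respiratory chain. They are 10 genes of the 55536 in the count tables, chosen by name: Mpc1, Mpc2, Pdha1, Pdk1, Pdk2, Pcx, Cs, Glud1, Gpd2 and Slc25a12. RNA-seq was performed on pancreatic islets of CBA mice, which were males according to the methods of the study and were 10 weeks old when the diets began. Mice received standard chow (regular diet, RD), high-fat diet (HFD), or the same high-fat diet with 0.8 mg/g of the pan-AMPK activator O304 (HFD-O304). AMPK is a kinase that senses a low energy state of the cell. The methods give 9 weeks of diet and the results text gives 10 weeks. Each of the 7 samples per group was RNA from 150 islets out of a pool of 5 mice, so that every value is an average over animals, and O304 was given only on the high-fat diet. One sample titled HFD-O304 (replicate 1) carries the diet tag HFD. It was kept in the group of its title, and the calls that involve HFD-O304 islets were also made without it.

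In β-cells, the insulin-secreting cells that make up most of the mouse islet, glucose is broken down to pyruvate with little diversion to lactate. Pyruvate enters mitochondria through the MPC1-MPC2 carrier and is then either oxidised to acetyl-CoA by pyruvate dehydrogenase or carboxylated to oxaloacetate by pyruvate carboxylase, the anaplerotic route. The NADH formed in glycolysis is reoxidised through the glycerol phosphate shuttle and the malate-aspartate shuttle, and both routes are known to support glucose-stimulated insulin secretion.

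Of the 10 genes, Gpd2 fell by 31.4% and Pcx fell by 30.9% in HFD compared with RD islets, and the other 8 were not called in that comparison, which called 3.54% of all genes tested. In HFD-O304 islets Gpd2 was 67.5% higher than in HFD islets, Glud1 was 13.8% higher and Pdha1 fell by 13.9%, in a comparison that called 11.9% of genes. Glud1 and Pdha1 were close to the threshold, and each stayed called in 4 of 14 fits that left out a sample. No member was called between HFD-O304 and RD islets, where 1.31% of genes were. Among genes with a mean of at least 50 normalised read counts, as all members had, these shares were 6.22%, 20.8% and 2.53%, in the same order. A gene was called at a Benjamini-Hochberg adjusted p under 0.01 in edgeR's quasi-likelihood test over 27229 genes.

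The promoters of Gpd2 and Pcx are shown because these are the members that were lower in HFD islets. The windows run from 250 bases before to 50 bases after each RefSeq start site (GRCm38.p6, plus strand), and capitals mark matches to any of the 8 motifs searched. Both genes have a pair of such windows, and which of the start sites islets use was not measured.
Gpd2, chr2:57237428-57237727: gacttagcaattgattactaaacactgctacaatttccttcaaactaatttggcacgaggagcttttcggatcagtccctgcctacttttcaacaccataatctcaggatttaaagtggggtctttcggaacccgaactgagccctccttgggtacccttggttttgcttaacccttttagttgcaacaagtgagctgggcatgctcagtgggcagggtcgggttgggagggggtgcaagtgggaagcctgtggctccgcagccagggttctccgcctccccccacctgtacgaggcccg
Gpd2, chr2:57238132-57238431: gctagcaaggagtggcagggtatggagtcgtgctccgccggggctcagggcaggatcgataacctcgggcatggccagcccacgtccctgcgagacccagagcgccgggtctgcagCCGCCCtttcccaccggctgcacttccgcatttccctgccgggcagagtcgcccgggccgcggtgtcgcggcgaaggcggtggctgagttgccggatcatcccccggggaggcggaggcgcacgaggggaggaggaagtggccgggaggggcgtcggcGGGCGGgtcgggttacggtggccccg
Pcx, chr19:4510222-4510521: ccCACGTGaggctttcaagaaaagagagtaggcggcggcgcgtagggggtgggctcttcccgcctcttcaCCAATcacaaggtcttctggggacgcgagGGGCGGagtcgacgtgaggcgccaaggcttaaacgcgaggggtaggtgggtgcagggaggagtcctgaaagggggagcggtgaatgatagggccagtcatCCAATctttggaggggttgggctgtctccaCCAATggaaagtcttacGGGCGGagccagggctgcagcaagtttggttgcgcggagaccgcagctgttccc
Pcx, chr19:4594069-4594368: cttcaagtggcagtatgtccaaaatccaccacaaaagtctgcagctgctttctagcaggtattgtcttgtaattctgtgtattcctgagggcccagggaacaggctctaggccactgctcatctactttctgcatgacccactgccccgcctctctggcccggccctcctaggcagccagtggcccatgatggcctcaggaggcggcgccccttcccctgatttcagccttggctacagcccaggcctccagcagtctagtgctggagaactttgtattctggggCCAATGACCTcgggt

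The search covered both strands. The E-box was read as CACGTG. Binding sites of nuclear receptors were read as the half-site AGGTCA, and those of estrogen-related receptors as TCAAGGTCA, which contains that half-site. The element of the cAMP response was read as TGACGTCA and the core of the NRF1 element as GCATGCGC. The GC box was read as GGGCGG, and the CCAAT box by the letters of its name. For forkhead factors the letters were GTAAACA. Positions count from the start site as 1, with bases before it negative. The first Gpd2 window held none of them at a GC content of 53.0%, and the second held GC boxes at -134 and 25 at a GC content of 72.7%. The first Pcx window held an E-box at -248, GC boxes at -151 and -4, and CCAAT boxes at -180, -51 and -21. The second Pcx window held a nuclear receptor half-site on the reverse strand at 40 that overlaps a CCAAT box at 36. Among all 32851 promoter windows of the same length, a GC box was present in 35.7%, a CCAAT box in 37.4%, a half-site in 16.3%, an E-box in 7.15%, a forkhead element in 3.65%, an NRF1 core in 2.71%, a cAMP response element in 1.79% and an estrogen-related receptor element in 0.423%. Of the 15 windows of the 10 genes, 8 held a GC box, 6 a CCAAT box, 2 an E-box, 2 a half-site and 1, at Glud1, an NRF1 core. The other 3 motifs were in none of these windows. These matches are a description of the letters in the windows.

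Depth was 13809266 to 48922569 read pairs on genes per sample, with a median of 38719302. Members had between 252 and 8203 counts in every sample, and the coefficient of variation of normalised read counts within a group ranged from 1.88% to 17.5%. All 10 passed the filter on low counts. The islet markers were present in every sample: the summed level of 8 β-cell markers was 276910 to 337373 CPM (counts scaled to the normalised size of the library) in RD, 316283 to 374890 CPM in HFD and 258869 to 306879 CPM in HFD-O304 islets. This sum thus lay lower in HFD-O304 than in HFD islets without overlap, in the comparison that called Gpd2, Glud1 and Pdha1. The part of these markers in those calls was not tested. The 8 markers were Ins1, Ins2, Iapp, Mafa, Slc2a2, Ucn3, Nkx6-1 and Pdx1. The insulin gene Ins2 alone had medians of 200370, 215180 and 181038 CPM in RD, HFD and HFD-O304 islets. The medians of the sum were 305586, 332763 and 276403 CPM, so that most of the sum was Ins2. It does not give the direction of each marker, and the paper reports higher Ucn3 in HFD-O304 than in HFD islets. HFD-O304 replicate 1 had 27.6 CPM of Cd36, within the 26.0 to 38.6 CPM of its titled group and above the 2.91 to 4.12 CPM of HFD islets.

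The other cell types of the islet differed between the same groups. The summed level of 3 α-cell markers (Gcg, Irx2 and Ttr, each detected in every sample) was 23171 to 28854 CPM in RD, 10419 to 18776 CPM in HFD and 23351 to 31721 CPM in HFD-O304 islets, so that HFD lay below both other groups without overlap. Gcg alone had medians of 22729, 10840 and 26498 CPM in RD, HFD and HFD-O304 islets, beside 23735, 13363 and 27388 CPM for the sum. The α-cell sum is thus mostly the Gcg transcript, and the separate directions of Irx2 and Ttr are not given here. The 3 δ-cell markers summed to 2362 to 3825 CPM in RD, 1305 to 2883 CPM in HFD and 2330 to 4457 CPM in HFD-O304 islets. Stellate cell markers, 5 genes, summed to 246 to 347 CPM in RD, 296 to 528 CPM in HFD and 163 to 277 CPM in HFD-O304 islets, and 5 genes of dividing cells to 12.6 to 21.2, 14.7 to 86.4 and 6.10 to 15.5 CPM. The summed markers of PP cells, duct, endothelium and macrophages overlapped between all groups. In whole islets, fewer cells of a type and less RNA per cell cannot be told apart.

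**Figure D1:**
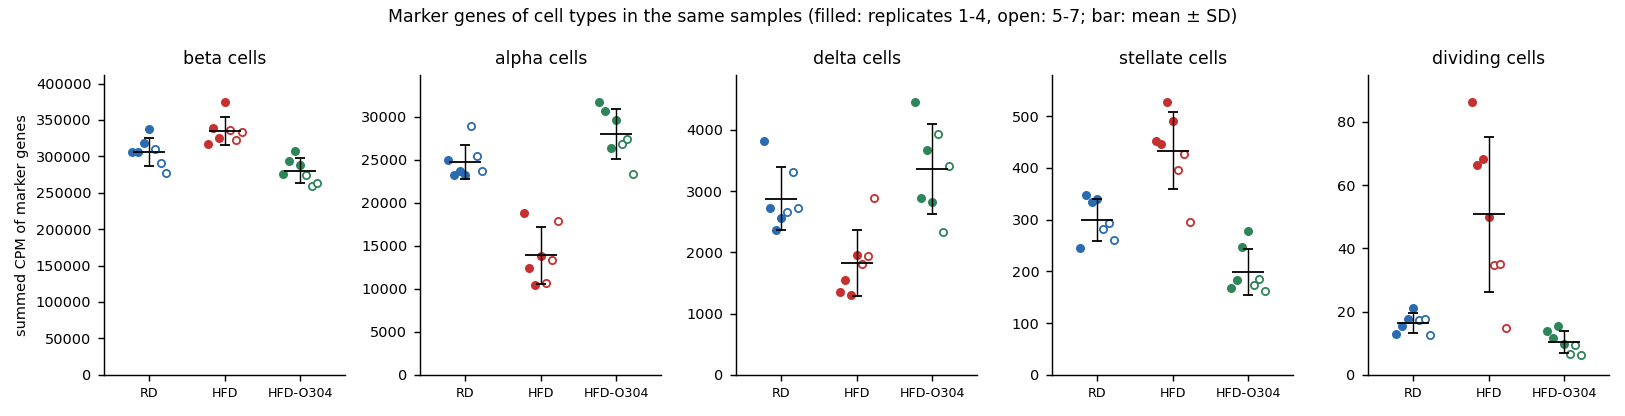
Summed level of marker genes in CPM (y axis) by group (x axis), with a point per sample, filled for replicates 1 to 4 and open for replicates 5 to 7, and the mean ± SD over 7 samples as a bar. In HFD islets the α-cell markers lie between 10419 and 18776 CPM, below every RD and HFD-O304 sample.

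Levels of different genes were compared per kilobase of transcript. In RD islets Pcx was the most abundant member at 75.4 ± 7.04 CPM per kb (SD, n = 7), followed by Glud1 at 62.8 ± 2.57, Pdha1 at 34.8 ± 2.48 and Cs at 28.5 ± 2.47 CPM per kb. The ranges of Pcx and Glud1 overlapped in RD islets, at 67.3 to 87.8 and 59.1 to 67.6 CPM per kb. Then came Mpc2 at 20.2 ± 2.02, Mpc1 at 18.5 ± 2.01, Gpd2 at 17.8 ± 2.26, Pdk2 at 14.8 ± 1.45, Slc25a12 at 12.2 ± 0.775 and Pdk1 at 6.83 CPM per kb (5.71 to 8.22), and the ranges of neighbours from Mpc2 to Slc25a12 overlapped, as did those of Pdha1 and Cs. Glud1 came before Pcx in HFD islets, at 60.8 ± 3.84 and 52.1 ± 9.25 CPM per kb, and in HFD-O304 islets, at 69.2 ± 2.52 and 63.9 ± 6.05 CPM per kb, with overlapping ranges in both groups. With the union of all annotated exons as length in place of the median transcript, Pcx, Glud1 and Pdha1 kept ranks 1 to 3 in RD islets. Mpc2 moved there from rank 5 to 10 and Gpd2 from rank 7 to 4. In HFD islets that length put Pdha1 first at 28.3 CPM per kb, before Glud1 at 27.6 and Pcx at 25.4. The order of these genes in HFD islets thus depends on the length used.

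Mitochondrial glycerol-3-phosphate dehydrogenase, encoded by Gpd2 (ENSMUSG00000026827, chr2:57237635-57370719, plus strand, GRCm38), is the inner membrane enzyme of the glycerol phosphate shuttle. In RD islets Gpd2 had 2948, 3799 and 4277 normalised read counts (lowest, median, highest). In HFD islets it had 2166, 2380 and 3370 counts. In HFD-O304 islets it had 3574, 4149 and 4863 counts. All 7 HFD-O304 samples lay above all 7 HFD samples, and 6 of 7 HFD samples, at 2166 to 2717 counts, lay below every RD sample, the exception being HFD replicate 7. The means were 3707 ± 475, 2549 ± 413 and 4252 ± 434 counts (SD, n = 7 each). The log2 fold change was -0.54 (SE 0.093, edgeR adjusted p = 0.000508) for HFD vs RD and 0.74 (SE 0.093, edgeR adjusted p = 1.62e-06) for HFD-O304 vs HFD islets. These comparisons share the HFD samples.

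Gpd2 in HFD-O304 compared with RD islets had a log2 fold change of 0.20 (95% interval 0.019 to 0.38, edgeR adjusted p = 0.314) and was not called. Replicates 1 to 4 and 5 to 7 of each group carry library identifiers from different runs of numbers, and what else differed between these sets is not given in the sources used here. Over all groups Gpd2 was 0.22 higher on the log2 scale in replicates 5 to 7 (SE 0.062, edgeR adjusted p = 0.0254), which did not pass the threshold. The same difference was 0.22 for Pdk2, 0.19 for Pdk1 and 0.18 for Pcx, and negative for Mpc1, Mpc2, Cs and Pdha1. None of these passed either. Within the sets, the log2 fold change of Gpd2 was -0.56 and -0.52 for HFD vs RD and 0.77 and 0.70 for HFD-O304 vs HFD islets. Without HFD-O304 replicate 1, the sample with the conflicting tag, the latter was 0.74 (SE 0.098, edgeR adjusted p = 5.81e-06), and without HFD replicate 7 the former was -0.62 (SE 0.085, edgeR adjusted p = 1.82e-05).

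Pyruvate carboxylase, encoded by Pcx (ENSMUSG00000024892, chr19:4510472-4621752, plus strand), forms oxaloacetate from pyruvate. RD islets had 5625, 6345 and 7353 normalised read counts of Pcx (lowest, median, highest). HFD islets had 3146, 4258 and 5639 counts. HFD-O304 islets had 4789, 5533 and 5961 counts. As for Gpd2, 6 of 7 HFD samples lay below every RD sample and HFD replicate 7 did not, while HFD-O304 overlapped with both other groups. The means were 6346 ± 592, 4394 ± 767 and 5371 ± 489 counts (SD, n = 7 each). The log2 fold change of Pcx in HFD vs RD islets was -0.53 (SE 0.091, edgeR adjusted p = 0.000485).

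The higher Pcx of HFD-O304 vs HFD islets, 0.29 on the log2 scale (95% interval 0.12 to 0.47, edgeR adjusted p = 0.0218), did not pass the threshold. It passed without HFD replicate 7 (0.36, edgeR adjusted p = 0.00237) and with library set as a term (0.30, edgeR adjusted p = 0.00676). HFD-O304 vs RD islets gave -0.24 (95% interval -0.42 to -0.061, edgeR adjusted p = 0.185). Within replicates 1 to 4 the HFD vs RD log2 fold change of Pcx was -0.72 and within replicates 5 to 7 it was -0.31, where it did not pass (edgeR adjusted p = 0.0312). The test of that difference gave 0.41 (SE 0.14, edgeR adjusted p = 0.672).

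**Figure D2:**
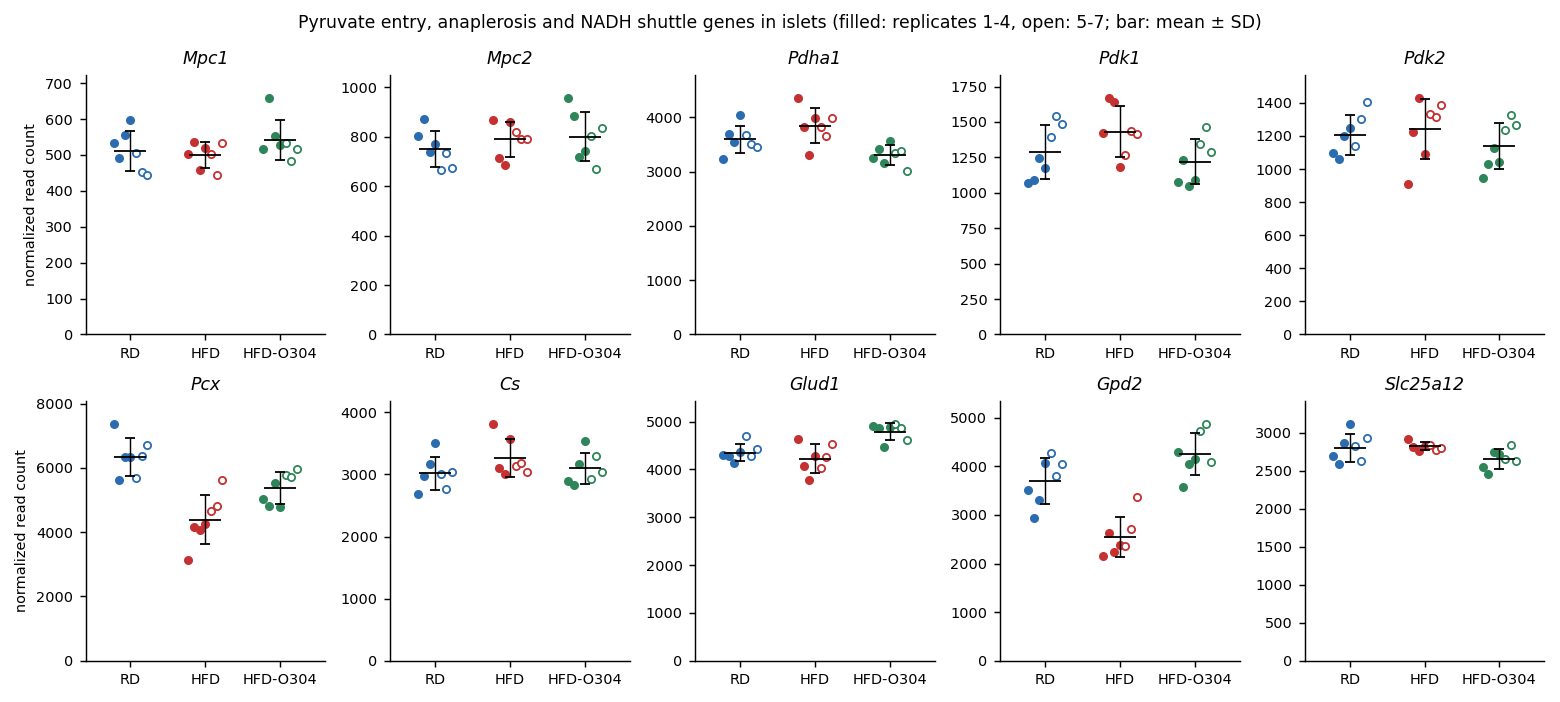
Normalised read counts (y axis, from 0) of the 10 genes by group (x axis), with a point per sample, filled for replicates 1 to 4 and open for replicates 5 to 7, and the mean ± SD over 7 samples as a bar. HFD samples of Gpd2 (2166 to 3370) lie below all HFD-O304 samples (3574 to 4863). The groups overlap in the other comparisons of Gpd2 and in all comparisons of the other genes.

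HFD replicate 7, the HFD sample with the highest Pcx and Gpd2, also had the lowest HFD levels of dividing cell markers (14.7 CPM, inside the RD range) and of stellate markers (296 CPM). Its δ-cell markers, at 2883 CPM, were the highest of HFD islets and inside the RD range. Its α-cell markers, at 17892 CPM, were the second highest of HFD islets and below the RD range. The highest HFD level of α-cell markers, 18776 CPM, was in HFD replicate 1. That sample had the lowest Pcx and Gpd2 of HFD islets, at 3146 and 2166 normalised read counts. The part of these markers in the difference of HFD replicate 7 was not tested.

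The α-cell sum, which is mostly Gcg, moved with Gpd2 and Pcx between groups. With the log2 summed α-cell level as a covariate, an analysis added after the data were seen, no member was called in any comparison. Gpd2 was then -0.34 (SE 0.19, edgeR adjusted p = 0.574) for HFD vs RD and 0.50 (edgeR adjusted p = 0.299) for HFD-O304 vs HFD islets. Pcx was -0.69 (SE 0.18, edgeR adjusted p = 0.27) in HFD vs RD islets. Without the covariate, the HFD vs RD values were -0.54 (SE 0.093) for Gpd2 and -0.53 (SE 0.091) for Pcx. The lost call of Pcx thus came with a larger SE and not with a smaller change. Since the α-cell level of HFD islets did not overlap with that of either other group, diet and α-cell level cannot be told apart in these samples. With 12 acinar markers as a covariate, whose sum ran from 20.2 to 8681 CPM over the 21 samples, the calls of the members were those of the fit without it.

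Pyruvate dehydrogenase E1α, encoded by Pdha1 (ENSMUSG00000031299, chrX:160122209-160138413, minus strand), is the catalytic subunit that regulatory kinases phosphorylate. RD islets had 3236, 3548 and 4051 normalised read counts of Pdha1 (lowest, median, highest). HFD islets had 3310, 3826 and 4353 counts. HFD-O304 islets had 3015, 3337 and 3559 counts. The groups overlapped, with 3 of 7 HFD-O304 samples below every HFD sample. Pdha1 fell by 0.22 on the log2 scale in HFD-O304 vs HFD islets (SE 0.057, edgeR adjusted p = 0.0077), and in HFD vs RD islets the value was 0.093 (95% interval -0.019 to 0.21, edgeR adjusted p = 0.385).

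Glutamate dehydrogenase, encoded by Glud1 (ENSMUSG00000021794, chr14:34310727-34345265, plus strand), links glutamate and α-ketoglutarate. RD islets had 4128, 4301 and 4691 normalised read counts of Glud1 (lowest, median, highest). HFD islets had 3780, 4262 and 4628 counts. HFD-O304 islets had 4471, 4862 and 4942 counts. Of the 7 HFD-O304 samples, 5 lay above every HFD sample and 5 above every RD sample. The log2 fold change of Glud1 in HFD-O304 vs HFD islets was 0.19 (SE 0.049, edgeR adjusted p = 0.00665). HFD vs RD islets gave -0.047 (95% interval -0.14 to 0.048, edgeR adjusted p = 0.658) and HFD-O304 vs RD islets 0.14 (95% interval 0.044 to 0.23, edgeR adjusted p = 0.14).

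The calls of Pdha1 and Glud1 were close to the threshold. Leaving out 1 sample at a time, each stayed under 0.01 in 4 of 14 fits, with edgeR adjusted p up to 0.026 for Pdha1 and 0.0202 for Glud1. Pdha1 lost its call without HFD replicate 1, 2, 4, 5 or 7 or HFD-O304 replicate 1, 2, 3, 5 or 7, and Glud1 without HFD replicate 2, 3, 4, 5 or 6 or HFD-O304 replicate 1, 4, 5, 6 or 7. Without HFD-O304 replicate 1 the log2 fold changes were -0.22 (edgeR adjusted p = 0.014) and 0.17 (edgeR adjusted p = 0.0202). Gpd2 stayed called in all 14 fits. With the α-cell covariate Glud1 turned to -0.085 (edgeR adjusted p = 0.773) and Pdha1 was -0.46 (edgeR adjusted p = 0.0784).

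Pyruvate dehydrogenase kinases phosphorylate and switch off the dehydrogenase. Pdk1 (ENSMUSG00000006494, chr2:71873224-71903858, plus strand) had medians of 1243, 1424 and 1233 normalised read counts in RD, HFD and HFD-O304 islets, with ranges of 1070 to 1543, 1179 to 1668 and 1048 to 1462. Pdk2 (ENSMUSG00000038967, chr11:95026258-95041354, minus strand) had medians of 1197, 1313 and 1124 counts, with ranges of 1059 to 1404, 912 to 1428 and 945 to 1324. All groups overlapped for both kinases. Pdk1 gave a log2 fold change of 0.15 (95% interval -0.030 to 0.34, edgeR adjusted p = 0.382) for HFD vs RD and -0.23 (95% interval -0.41 to -0.045, edgeR adjusted p = 0.0926) for HFD-O304 vs HFD islets. The latter was -0.42 within replicates 1 to 4, where it passed the threshold (edgeR adjusted p = 0.00668), and 0.00041 within replicates 5 to 7. The difference between the sets was 0.41 (SE 0.14, edgeR adjusted p = 0.886). In HFD vs RD islets Pdk1 was 0.37 in the first and -0.11 in the second set, a difference of -0.47 (SE 0.14, edgeR adjusted p = 0.564). Pdk2 gave 0.039 (95% interval -0.14 to 0.22) for HFD vs RD and -0.12 (95% interval -0.30 to 0.059) for HFD-O304 vs HFD islets.

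The pyruvate carrier genes did not pass the test in any comparison. Mpc1 (ENSMUSG00000023861, chr17:8282904-8297661, plus strand) had 444, 505 and 598 normalised read counts in RD islets (lowest, median, highest), 446, 502 and 537 in HFD islets and 482, 528 and 658 in HFD-O304 islets. Mpc2 (ENSMUSG00000026568, chr1:165460637-165481214, plus strand) had 665, 738 and 871 counts in RD, 685, 791 and 868 in HFD and 668, 803 and 956 in HFD-O304 islets. The groups overlapped for both. The 95% intervals of the log2 fold changes of Mpc1 ran from -0.18 to 0.10 for HFD vs RD and from -0.031 to 0.25 for HFD-O304 vs HFD islets, and those of Mpc2 from -0.085 to 0.22 and from -0.13 to 0.17.

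Citrate synthase, encoded by Cs (ENSMUSG00000005683, chr10:128337734-128362479, plus strand), joins acetyl-CoA and oxaloacetate in the first step of the TCA cycle. It had 2689, 3010 and 3500 normalised read counts in RD islets (lowest, median, highest), 3000, 3140 and 3805 in HFD islets and 2829, 3044 and 3540 in HFD-O304 islets, with all groups overlapping. Its log2 fold change was 0.11 (95% interval -0.024 to 0.23) for HFD vs RD and -0.068 (95% interval -0.20 to 0.061) for HFD-O304 vs HFD islets.

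Slc25a12 (ENSMUSG00000027010, chr2:71271063-71367749, minus strand) encodes aralar, the aspartate-glutamate carrier of the malate-aspartate shuttle. It had 2587, 2825 and 3108 normalised read counts in RD islets (lowest, median, highest), 2762, 2818 and 2918 in HFD islets and 2450, 2647 and 2832 in HFD-O304 islets. The coefficient of variation of the HFD samples, 1.88%, was the lowest of any member and group, and 6 of 7 HFD-O304 samples lay below all of them. The log2 fold change was 0.0031 (95% interval -0.092 to 0.099, edgeR adjusted p = 0.995) for HFD vs RD and -0.081 (95% interval -0.18 to 0.015, edgeR adjusted p = 0.291) for HFD-O304 vs HFD islets.

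**Figure D3:**
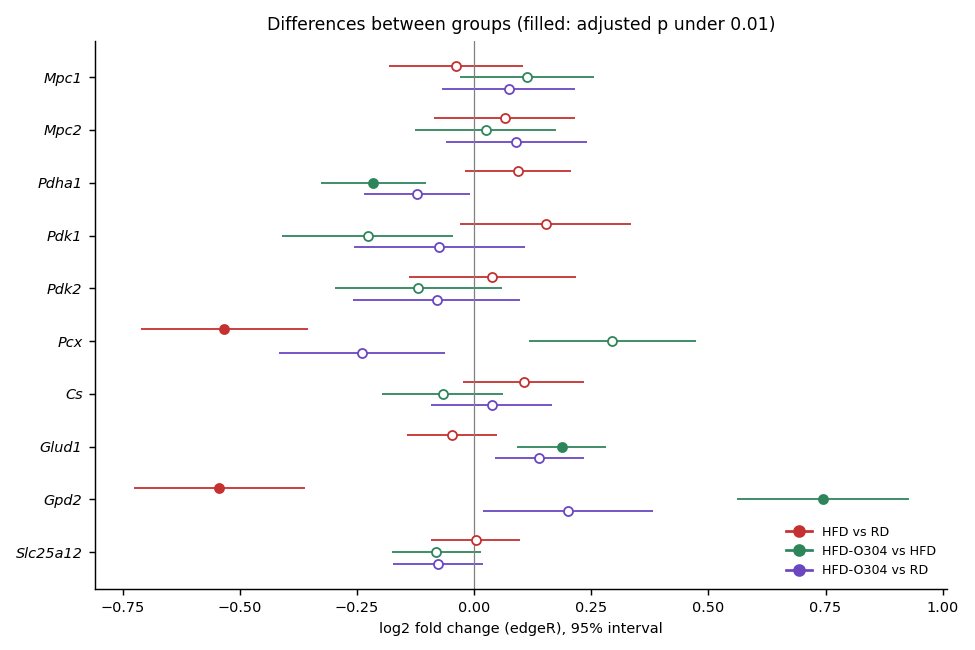
Log2 fold change (x axis, edgeR) of each of the 10 genes (y axis) in the 3 comparisons with 95% intervals, filled where the adjusted p was under 0.01. Gpd2 stands at -0.54 for HFD vs RD and 0.74 for HFD-O304 vs HFD islets, and no point of HFD-O304 vs RD islets is filled.

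Against all genes, the 2 of 10 members called in HFD vs RD islets stand beside 3.54% of the 27229 genes tested and 6.22% of the 13216 genes with a mean of at least 50 normalised read counts, as all members had. In HFD-O304 vs HFD islets 3 of 10 members were called, beside 11.9% of all genes and 20.8% of the more abundant ones. In HFD-O304 vs RD islets 0 of 10 were called by edgeR or DESeq2, beside 1.31% and 2.53%. The lowest unadjusted edgeR p values there were 0.00818 for Glud1, 0.0138 for Pcx, 0.0399 for Gpd2 and 0.0423 for Pdha1. The share of all genes at such unadjusted levels was not counted, so these values are not read against it. Groups did not overlap for 0 of 10 members in HFD vs RD (2.42% of the more abundant genes), for 0 in HFD-O304 vs RD (3%) and for 1, Gpd2, in HFD-O304 vs HFD islets (11.3%). The median log2 fold change of the members was 0.021, -0.019 and -0.022 in HFD vs RD, HFD-O304 vs RD and HFD-O304 vs HFD islets, and that of all genes tested was -0.0044, 0.0078 and 0.027.

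Ratios of counts within a sample do not depend on its scaling. The count ratio of Pcx to Pdha1, the genes of the anaplerotic and the oxidative entry, was 1.52, 1.79 and 2.27 in RD islets (lowest, median, highest), 0.723, 1.22 and 1.42 in HFD islets and 1.35, 1.68 and 1.98 in HFD-O304 islets. RD and HFD did not overlap. The ratio of Gpd2 to Slc25a12, the inner membrane genes of the shuttles, was 1.14, 1.31 and 1.51 in RD, 0.742, 0.841 and 1.21 in HFD and 1.46, 1.56 and 1.78 in HFD-O304 islets. HFD and HFD-O304 did not overlap. How often the ratios of other gene pairs separate these groups was not counted, so the separation of these ratios has no reference. The medians of Pdk1 to Pdk2 were 1.04, 1.09 and 1.09 and those of Mpc1 to Mpc2 were 0.664, 0.614 and 0.709, with all groups overlapping.

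**Figure D4:**
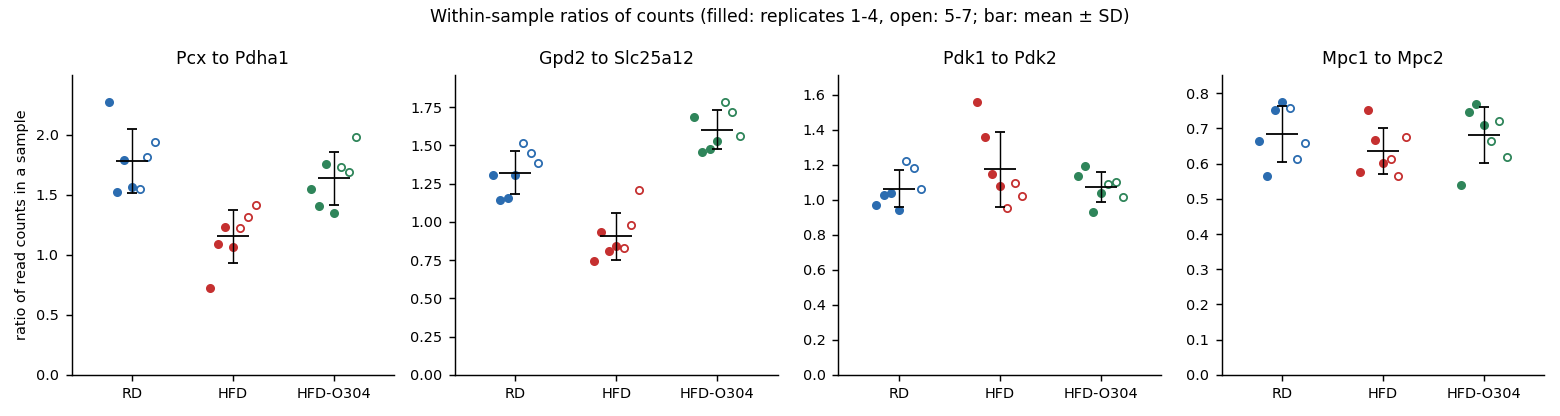
Ratio of read counts of gene pairs within a sample (y axis, from 0) by group (x axis), with a point per sample, filled for replicates 1 to 4 and open for replicates 5 to 7, and the mean ± SD over 7 samples as a bar. Pcx to Pdha1 lies at 1.52 or above in RD and at 1.42 or below in HFD islets. How often other gene pairs separate these groups was not counted.

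The surrounding pathway was described by 8 lists with 65 genes, 55 of them not members. In HFD vs RD islets 1 gene was higher and 5 were lower, and the median on the log2 scale was 0.030. These 6 genes are 9.23% of the 65, beside 3.54% of all genes tested and 6.22% of the more abundant ones. In the pyruvate dehydrogenase complex 0 of 5 genes and in the TCA cycle 0 of 17 were called, and lists of these sizes are too short to read against that share. Apart from Pcx and Gpd2, the genes lower in HFD islets were Pdk4, Slc16a7 and Glul, and the gene that was higher was Me3.

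Me3 encodes the mitochondrial NADP-dependent malic enzyme, which forms pyruvate from malate. Its means were 577, 890 and 310 normalised read counts in RD, HFD and HFD-O304 islets (n = 7 each), with ranges of 493 to 651, 708 to 1024 and 256 to 406, and no pair of groups overlapped. The log2 fold change was 0.62 (SE 0.097, edgeR adjusted p = 0.000206) in HFD vs RD, -0.89 (SE 0.10, edgeR adjusted p = 2.88e-06) in HFD-O304 vs RD and -1.51 (SE 0.10, edgeR adjusted p = 6.06e-11) when HFD-O304 was compared with HFD.

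Pdk4, a pyruvate dehydrogenase kinase known to rise in fasting, had means of 680, 425 and 1274 normalised read counts (n = 7 each), with ranges of 352 to 882, 319 to 578 and 1038 to 1517. Its log2 fold change was -0.69 (SE 0.15, edgeR adjusted p = 0.00448) in HFD vs RD, where the groups overlapped, 0.91 (SE 0.15, edgeR adjusted p = 0.000401) in HFD-O304 vs RD and 1.59 (SE 0.15, edgeR adjusted p = 2.16e-08) when HFD-O304 was compared with HFD. HFD-O304 islets lay above both other groups without overlap. Pdk4 and Me3 were the pathway genes called between HFD-O304 and RD islets, 3.08% of the 65 beside 1.31% of all genes tested and 2.53% of the more abundant ones.

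Slc16a7, a monocarboxylate transporter, had means of 140 ± 14.9, 92.2 ± 16.6 and 159 ± 30.3 normalised read counts (SD, n = 7), with HFD below both other groups. It fell by 0.61 on the log2 scale in HFD vs RD islets (SE 0.13, edgeR adjusted p = 0.00291) and was 0.78 higher in HFD-O304 vs HFD islets (SE 0.13, edgeR adjusted p = 5.54e-05). Glul encodes glutamine synthetase, which uses the glutamate that Glud1 links to the TCA cycle. Its log2 fold change was -0.36 (SE 0.083, edgeR adjusted p = 0.00711) for HFD vs RD and 0.69 (SE 0.083, edgeR adjusted p = 7.91e-07) for HFD-O304 vs HFD islets.

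Between HFD-O304 and HFD islets, 8 of the 65 pathway genes were higher and 6 were lower, with a median of -0.070. These 14 genes are 21.5% of the 65, close to the 20.8% of the more abundant genes called there, so that the count is no result about the pathway. Beyond the genes above, the lower ones were Mdh1 (-0.49), the cytosolic malate dehydrogenase, Me2 (-0.34), a mitochondrial malic enzyme, Pdk3 (-0.31), a further pyruvate dehydrogenase kinase, and Gpd1 (-0.26), the cytosolic partner of Gpd2 in the glycerol phosphate shuttle. The edgeR adjusted p of these was 0.000183, 6.75e-05, 0.00448 and 0.00215. Gpd1 and Gpd2 thus differed in opposite directions: Gpd1 had means of 1774, 1858 and 1549 normalised read counts in RD, HFD and HFD-O304 islets (n = 7 each), with ranges of 1572 to 1993, 1723 to 2095 and 1416 to 1685. The higher ones were Idh2 (0.33), the mitochondrial and Idh1 (0.28), the cytosolic NADP-dependent isocitrate dehydrogenase, and Suclg2 (0.22), a subunit of succinyl-CoA ligase, at edgeR adjusted p of 0.00328, 0.00377 and 0.00779. Without HFD-O304 replicate 1, the sample with the conflicting tag, 11 of these 14 were called. The calls lost were those of Glud1, Pdha1 and Suclg2 (0.22, edgeR adjusted p = 0.0135), and against RD islets Me3 (-0.85) and Pdk4 (0.87) stayed called. Me3 was then -1.47 and Pdk4 1.55 relative to HFD islets, and Pcx, which was not called with all samples either, was 0.30 (edgeR adjusted p = 0.0269). With the α-cell covariate 0, 2 and 1 pathway genes were called in HFD vs RD, HFD-O304 vs RD and HFD-O304 vs HFD islets. The share of all genes called in that fit is not given here.

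**Figure D5:**
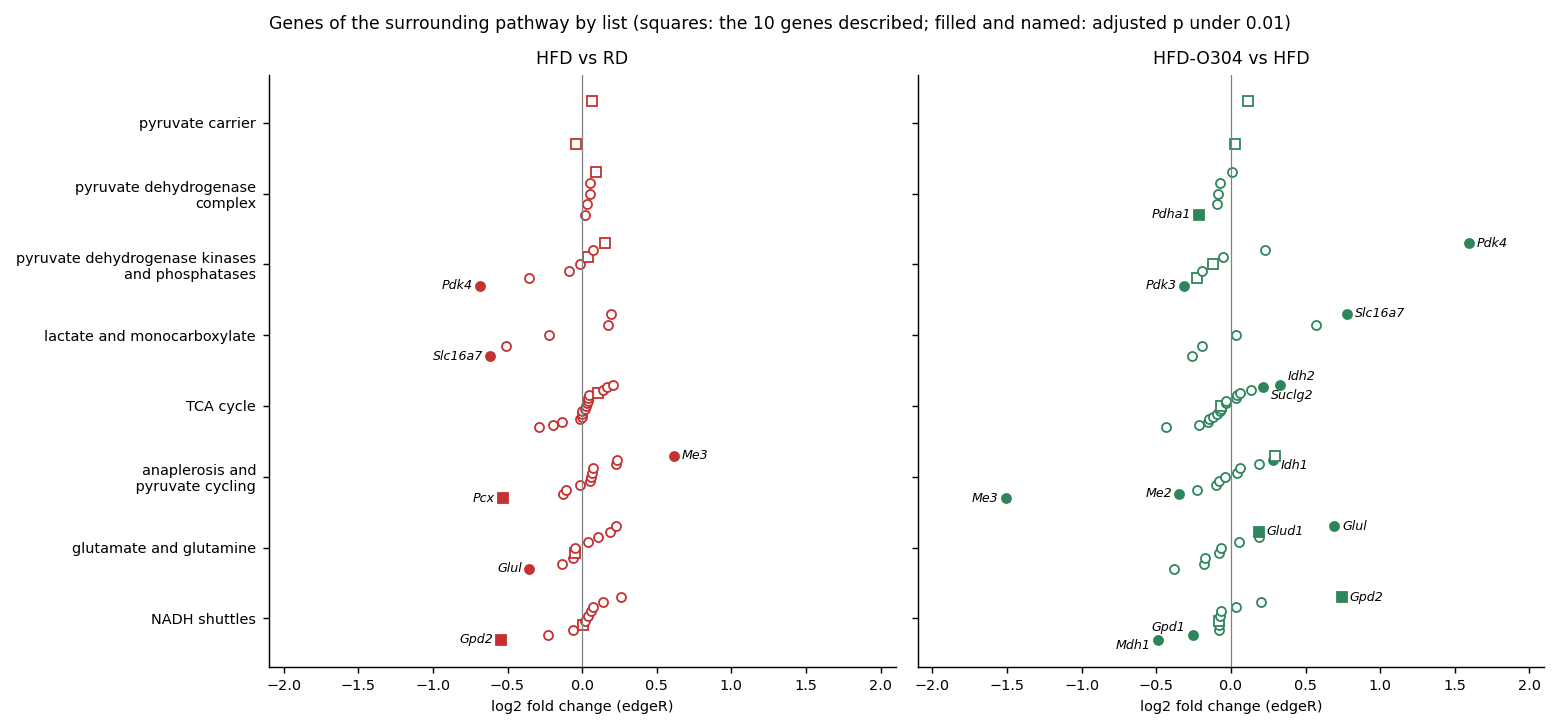
Log2 fold change (x axis, edgeR) of the genes of 8 pathway lists (y axis) in HFD vs RD (left) and HFD-O304 vs HFD islets (right), with squares for the 10 genes and circles for others, filled and named where the adjusted p was under 0.01. Genes with an RD mean under 20 normalised read counts are not drawn, and a gene of several lists appears in each. Me3 is at 0.62 on the left and -1.51 on the right.

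For each member, the genes with the most similar profile of log2 CPM over the 21 samples were sought among 13215 others, as a description in which all points share the libraries and the groups. For Gpd2 they were Epb41l3 (Pearson r = 0.980, Spearman rho = 0.978) and Grk5 (0.971 and 0.974). For Pcx they were Chrna4 (0.926 and 0.918) and Ivd (0.916 and 0.931), and for Glud1 Pcgf5 (0.920 and 0.904) and Etfa (0.909 and 0.892). Pdha1 was followed by Apmap (r = 0.903) and Rap1b (0.899), Cs by Snap47 (0.880) and Arhgap1 (0.878), and Slc25a12 by Cd82 (0.861) and Tcn2 (0.839). The closest for Pdk1 were Lrp2bp (0.852) and Cep83os (0.812), for Pdk2 Gmpr (0.854) and Dclk3 (0.832), for Mpc1 Med31 (0.801) and Sdhd (0.729), and for Mpc2 Cox5b (0.821) and Ywhaq (0.810).

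Some members share sequence with other loci. Of all 50-base windows of the protein-coding transcripts, 14.8% of Mpc1 occurred in transcripts of other genes (Mpc1-ps and Gm8219), 8.06% of Glud1 (Glud-ps and Gm43444), 4.0% of Cs (Csl), 0.464% of Pdha1 and 0.254% of Slc25a12. The 5 other members had none. Read pairs that match several places are not in the counts, which leaves the levels of these genes uncertain to that extent.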

How the data were processed

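Per the labels and the methods of the study, islet RNA libraries (TruSeq) were sequenced with paired 50-nt reads, checked with FastQC and aligned to GRCm38 (Ensembl version 96) with STAR. The authors deposited STAR's raw gene counts of the 21 samples, not normalized, in 3 columns (unstranded and 1 for each strand). Pairs matching several places or genes are not in them. The column of the second strand was used here, which held 28.8 to 36.3 times the count of the other strand. Of the read pairs, 18.5% to 24.9% were assigned to no gene. Groups were taken from the labels.

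Genes with at least 10 counts over the 21 samples (27229) were tested with edgeR 4.0.16 (TMM, quasi-likelihood, all 3 groups in 1 fit, no covariates; R 4.3.3), with Benjamini-Hochberg adjustment over all of them. DESeq2 1.42.0 was an alternative, and its size factors gave the normalised read counts. The scripts were tested on simulated data. 95% intervals are normal intervals from the SE. No 2 samples of the same group agreed within sampling noise (chi-square per gene 7.35 to 90.1). The precision is set by the 7 samples per group; the labels do not say that pools share no animals.

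Further markers of α-cells are not reported here and are not in the α-cell sum. The members and the lists were chosen with earlier results of these data known. All members are named, other pathway genes where they were called, and the 2 most similar genes per member. Alternatives were another normalization, filter, count column, threshold, tool or sample set, covariates, and leaving out each sample.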

Additional observations from a re-analysis of the deposited data

Results flagged for a closer look

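In 1 of 30 groups of 7 samples (10 genes in 3 groups) a sample stood apart from the rest: Mpc1 in HFD-O304 replicate 2 had 658 normalised read counts, and the next highest HFD-O304 sample had 552. The gap was 0.603 of the range of the group, above Dixon's critical value for 7 samples, which chance passes in about 1 of 20 groups. This sample was the shallowest, with 13809266 read pairs on genes and 252 counts of Mpc1. The part of depth in this value was not tested.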

How the results depend on the processing

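In HFD vs RD islets Gpd2 and Pcx stayed called under 10 of 12 alternative analyses and in all 14 that left out a sample. With replicates 5 to 7 only, which has fewer samples, 0 members and 1 pathway gene were called, and with the α-cell covariate 0 and 0. Pathway genes numbered 11 at an adjusted p under 0.05, 10 with DESeq2, 10 with a term for library set, and 4 to 9 when a sample was left out. In HFD-O304 vs RD islets 0 members were called throughout, and 1 pathway gene with either replicates 1 to 4 or 5 to 7. In HFD-O304 vs HFD islets 1 member, Gpd2, was called without a filter, with only the 2 groups compared or with replicates 5 to 7, 0 with the α-cell covariate, and 1 to 3 when a sample was left out. Pathway genes then numbered 9 with the 2 groups, 5 with replicates 5 to 7, 1 with the α-cell covariate and 8 to 17 when a sample was left out. The share of all genes called in each of these fits is not given here. A count that moved is therefore not read as a result about these genes.

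Directions turned in genes that were not called, and for Glud1 in HFD-O304 vs HFD islets, where it was called. In HFD vs RD islets with replicates 5 to 7, Mpc1 was 0.079 and Pdk1 -0.11; with replicates 1 to 4, Mpc2 was -0.030. With the α-cell covariate Mpc1 was 0.035, Pdk2 -0.35, Glud1 0.18 and Slc25a12 -0.027. In HFD-O304 vs HFD islets with replicates 5 to 7, Mpc2 was -0.052 and Pdk1 0.00041; with the α-cell covariate Mpc2 was -0.14, Pdk2 0.35 and Glud1 -0.085. Leaving out a sample gave -0.071 to 0.0072 for Mpc1 and -0.012 to 0.035 for Slc25a12 in HFD vs RD, and -0.033 to 0.058 for Mpc2 in HFD-O304 vs HFD islets. The cause of these changes was not tested.

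Samples with the same replicate number did not deviate together throughout (correlations from -0.532 to 0.688, of which 4, 6 and 5 of 7 exceeded 0.1 in the 3 comparisons), so the numbers were not taken as pairs. With the replicate number as a block, 2, 0 and 4 members and 9, 2 and 17 pathway genes were called in HFD vs RD, HFD-O304 vs RD and HFD-O304 vs HFD islets. The member gained in the last comparison was Pcx (0.30, edgeR adjusted p = 0.0099). The share of all genes called with the block is not given here, so the counts are not read against it.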
